A study of Mus musculus with 21 samples.

Results

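Mfsd2b and 8 other genes that make, move, break down or sense sphingosine-1-phosphate (S1P) were followed in mouse hematopoietic stem cells (HSCs) through repeated treatment with 5-fluorouracil (5-FU). The members were 9 of the 21000 genes in the deposited count table, taken by symbol: Mfsd2b, Spns2, Sphk1, Sphk2, Sgpl1, Sgpp1, S1pr1, S1pr2 and S1pr4. Mfsd2b was selected on its fall between PBS-treated and 5-FU-treated HSCs at day 6 of the first administration, and the other members were chosen as the genes of the same pathway. The values of that comparison are therefore given as a description, with no test, for all 9 members.

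The study asked how HSCs respond when 5-FU, an antimetabolite that kills cycling blood progenitors, drives them into the cell cycle. Wild-type mice were 10 weeks old at the start and received PBS or 5-FU (150 mg/kg) by intraperitoneal injection, up to 3 times at intervals of 21 days. HSCs, bone marrow cells positive for Sca-1, c-Kit and CD150 and negative for CD48 and lineage markers, were sorted 5 days (day 6) or 20 days (day 21) after an injection, and 3000 to 3500 cells went into each library of the injected mice. The 7 groups of 3 libraries were PBS-1_d6, 5FU-1_d6 and 5FU-1_d21 (the first administration), PBS-3_d6, 5FU-3_d6 and 5FU-3_d21 (the third administration), and old, which were untreated HSCs from mice of 2 years. The number of cells in the old libraries is not given in the sources used here. There was no PBS group at day 21 and no group of young untreated mice. In the study's methods, the lineage mix for HSCs taken 5 days after 5-FU lacked the Mac-1 antibody and the c-Kit gate was widened to dim cells, so that this gate and 5-FU itself cannot be told apart at day 6. The methods state that the gate was widened at no other time. In 5FU-3_d21 against 5FU-3_d6 the gate and the day therefore cannot be told apart. Total counts lay between 22184885 and 38649033 reads a library (median 26962256), with no library far from the rest. A count of 3 reads, used as the floor of detection, was worth 0.0850 to 0.128 CPM. The study's methods describe the 3 libraries of a group as biological replicates. How many mice went into each is not given in the sources used here.

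S1P is a signalling lipid made from sphingosine, itself released from ceramide. Sphingosine kinases (Sphk1 and Sphk2) make it, S1P lyase (Sgpl1) breaks it down irreversibly, and an S1P phosphatase (Sgpp1) returns it to sphingosine. Mfsd2b exports S1P from red cells and platelets, and Spns2 exports it from endothelium. S1pr1, S1pr2 and S1pr4 are G protein-coupled receptors for it. S1pr1 is best known for guiding blood cells out of tissues along the gradient of S1P between tissue and blood.

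In the GRCm38 annotation (GENCODE, release M21), Mfsd2b lies at chr12:4862440-4874359 on the minus strand and S1pr4 at chr10:81497747-81500132 on the minus strand. Both fell after the third administration of 5-FU and were higher again at day 21 (values below), so their promoters are shown. The sequences are the 250 bases before the RefSeq start of transcription in GRCm38.p6, chr12:4874360-4874609 for Mfsd2b and chr10:81500138-81500387 for S1pr4. They are written 5′ to 3′ on the strand of the gene, with matches to GATA, the core letters bound by the GATA factors of blood cells, in capitals (TATC where the match is on the other strand).
Mfsd2b: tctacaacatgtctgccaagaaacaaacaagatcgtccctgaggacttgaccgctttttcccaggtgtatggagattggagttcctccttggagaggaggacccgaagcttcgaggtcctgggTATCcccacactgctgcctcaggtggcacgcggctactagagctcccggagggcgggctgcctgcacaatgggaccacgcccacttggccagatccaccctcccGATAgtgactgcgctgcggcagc
S1pr4: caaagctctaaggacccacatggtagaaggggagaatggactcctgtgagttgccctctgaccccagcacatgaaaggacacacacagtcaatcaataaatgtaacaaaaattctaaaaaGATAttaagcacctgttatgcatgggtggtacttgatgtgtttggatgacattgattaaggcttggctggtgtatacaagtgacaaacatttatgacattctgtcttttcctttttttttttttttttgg
The Mfsd2b window held 2 matches, at positions -23 and -127 from the start, and the S1pr4 window held 1, at -130. The letters GATA on either strand were present in 53.6% of the 32851 windows of this length, GGAA in 93.4% and CACCC in 52.0%. Both windows held all 3 motifs, which at these shares is a description of their letters only. The Mfsd2b window was 59.6% G and C and the S1pr4 window 38.8%. RefSeq windows matched 8 of the 9 members, with S1pr1 left out.

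Per length of transcript, the exporter Spns2 was the most abundant member in HSCs of PBS-treated mice and Sphk1 the least. Read counts relative to library size (CPM, scaled by trimmed mean of M values) were divided by the length of the longest GENCODE transcript. On this scale the level of Spns2 was 62.8 ± 1.23 CPM per kb in PBS-1_d6 and 71.0 ± 3.11 in PBS-3_d6 (mean ± SD, n = 3). Sgpl1 followed at 23.2 ± 2.38 and 27.7 ± 5.61, and Sphk2 at 23.1 ± 3.08 and 24.0 ± 0.629, with libraries of these 2 enzymes overlapping. Next came S1pr4 (10.9 ± 0.758 and 11.2 ± 0.197), Sgpp1 (9.08 ± 1.07 and 9.21 ± 0.388), Mfsd2b (8.13 ± 0.845 and 7.86 ± 0.769) and S1pr1 (6.54 ± 0.170 and 6.90 ± 1.03). Within this run of 4 genes, Sgpp1 and Mfsd2b overlapped in PBS-1_d6, and Mfsd2b and S1pr1 in PBS-3_d6. S1pr2 was lower, at 1.95 ± 0.575 and 2.36 ± 0.640. Of the 6 PBS libraries, 2 held Sphk1 reads, at 1.08 and 0.673 CPM per kb, and the other libraries had none. Spns2, which is best known from endothelium, therefore had 7.79 ± 0.869 times the level of Mfsd2b per length in PBS-1_d6 and 9.11 ± 1.17 times in PBS-3_d6. The reads were not said to carry strand, and 21.9% of the exonic bases of Sphk2 overlap Dbp and Rpl18 on the opposite strand. For Spns2 this share is 3.21% (Mybbp1a), for Sphk1 4.02% (Gm29292), and for the other members 0. The Sphk2 level is uncertain for that reason.

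**Figure D1:**
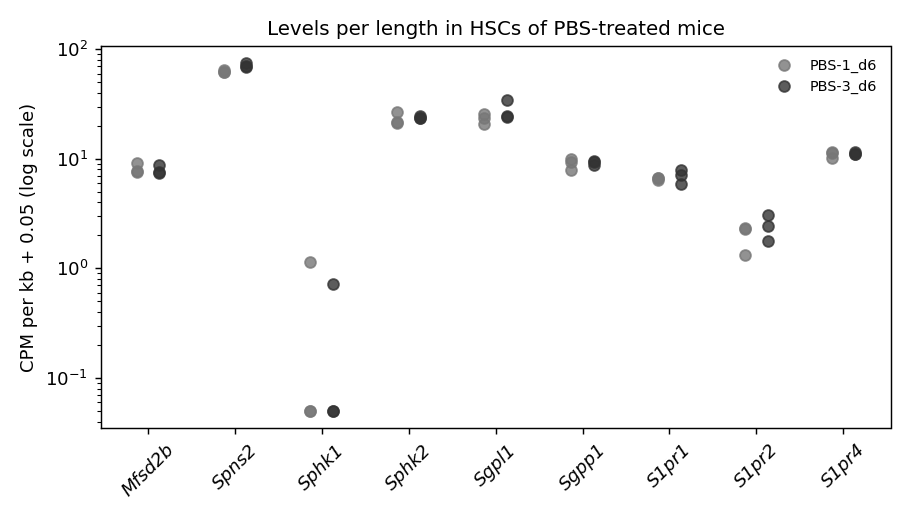
Level of each member in HSCs of PBS-treated mice, as CPM per kb of the longest transcript plus 0.05, on a log axis. Each point is a library (3 of PBS-1_d6 and 3 of PBS-3_d6); Spns2 stands at the top in all 6, and 4 libraries had no Sphk1 reads and sit at 0.05.

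Mfsd2b was nearly lost from HSCs at day 6 of the first administration, was reduced at day 6 of the third, and stood at the PBS level at both day 21 times. Its CPM was 27.1, 26.3 and 31.7 in PBS-1_d6 and 2.61, 0.963 and 0.804 in 5FU-1_d6, where the libraries held 62, 26 and 21 reads. All 3 treated libraries were far below all 3 PBS libraries, and all were above the floor of detection. The fitted log2 fold change of Mfsd2b was -4.31 ± 0.38 (SE), the measure for which it was chosen. In PBS-3_d6 the values were 25.6, 30.5 and 26.1 CPM, and in 5FU-3_d6 they were 15.6, 8.74 and 11.8 CPM. Again the groups did not overlap, but the level after the third administration (12.05 ± 3.42 CPM) lay above that after the first (1.46 ± 0.997 CPM) in every library. That gap was not tested, since the first course chose the gene. The 5FU-1_d6 columns of the table carry a suffix that the 5FU-3_d6 columns lack and that no source explains, so that it and the course cannot be told apart. The fall in 5FU-3_d6 against PBS-3_d6 had a log2 fold change of -1.20 ± 0.20 (adjusted p = 0.0100, edgeR's quasi-likelihood test, Benjamini-Hochberg over all genes tested).

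By day 21 the level of Mfsd2b was back among the PBS libraries. It was 26.1, 28.1 and 31.2 CPM in 5FU-3_d21 and 30.3, 25.3 and 27.0 CPM in 5FU-1_d21. The rise from 5FU-3_d6 to 5FU-3_d21 was 1.24 ± 0.20 on the log2 scale (adjusted p = 0.00728, edgeR). Against PBS-3_d6, 5FU-3_d21 differed by 0.05 ± 0.11 (adjusted p = 0.889), and against 5FU-1_d21 by 0.04 ± 0.11 (adjusted p = 0.976), both by edgeR. HSCs of old mice had 29.2, 26.3 and 24.4 CPM, a difference from PBS-3_d6 of -0.05 ± 0.12 (adjusted p = 0.956, edgeR). In order of their means, 5FU-1_d6 was lowest and 5FU-3_d6 next, and old (26.7 ± 2.40), PBS-3_d6 (27.4 ± 2.68), 5FU-1_d21 (27.5 ± 2.57), PBS-1_d6 (28.3 ± 2.94) and 5FU-3_d21 (28.5 ± 2.56) overlapped with each other.

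**Figure D2:**
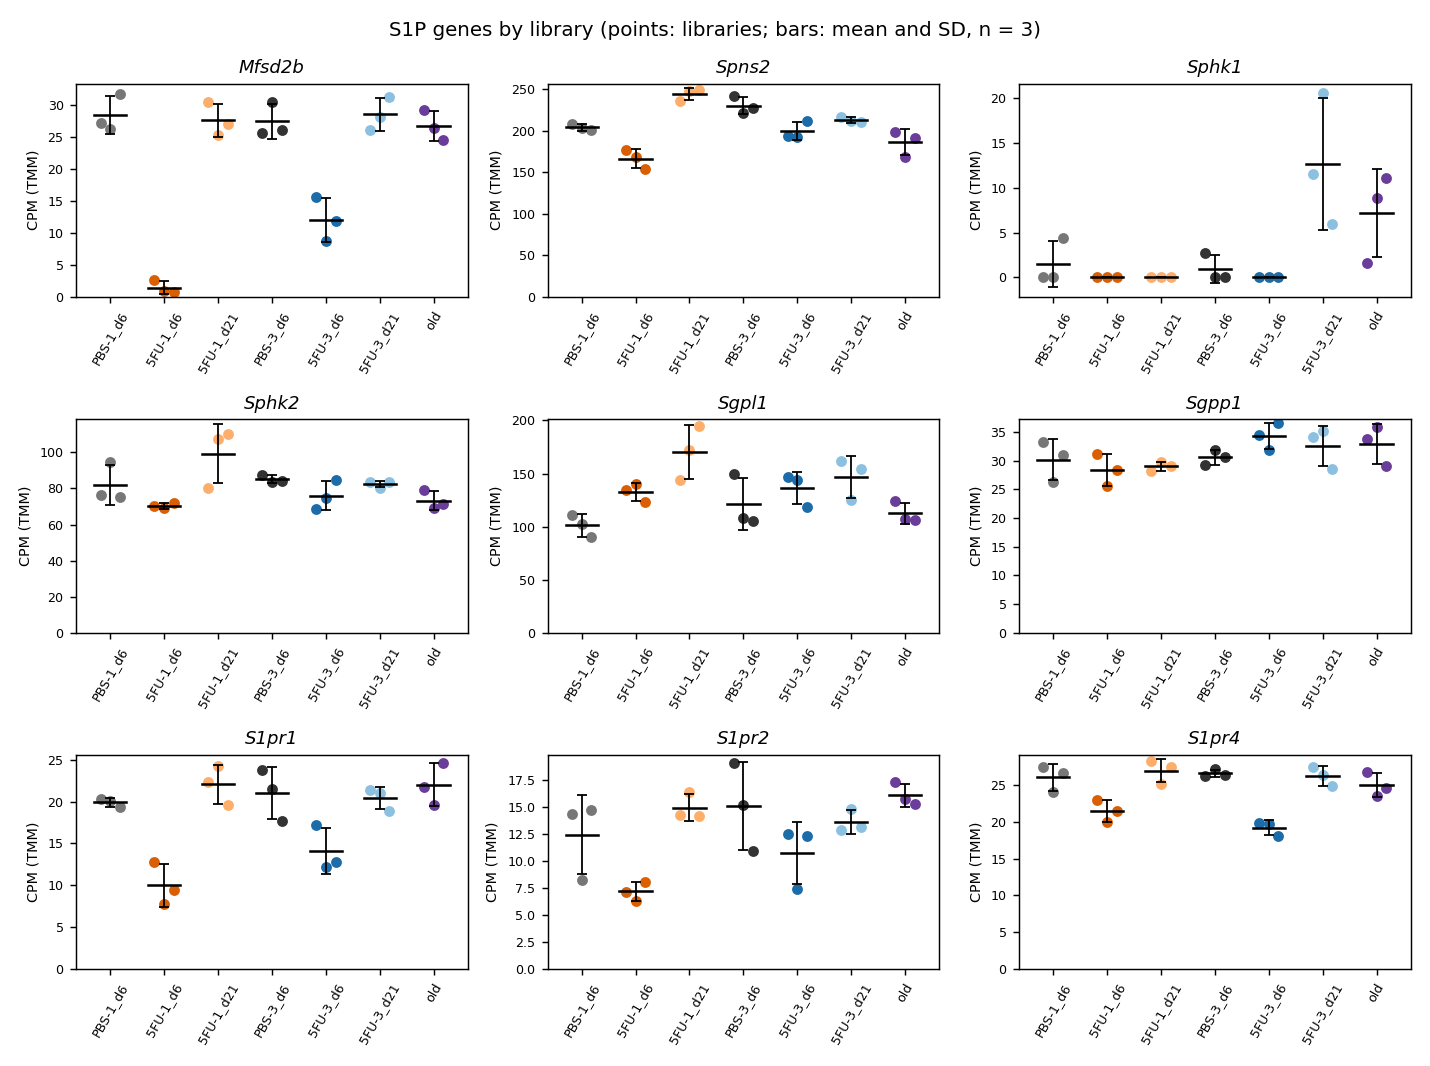
CPM of the 9 members in each of the 21 libraries, 1 panel a gene, with groups on the x axis; points are libraries, bars the mean and SD (n = 3). Mfsd2b drops to 0.804 to 2.61 CPM in 5FU-1_d6 and 8.74 to 15.6 in 5FU-3_d6, and lies between 24.4 and 31.7 in the other groups, while Sphk1 has reads in 8 libraries only.

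For the other exporter, Spns2, the fitted differences were smaller in size. It had 241, 222 and 227 CPM in PBS-3_d6 and 193, 192 and 212 CPM in 5FU-3_d6. The treated libraries were lower without overlap, but the log2 difference of -0.23 ± 0.07 did not pass the test (adjusted p = 0.0777, edgeR); it did so by DESeq2 (adjusted p = 0.0117). In the first course, Spns2 went from 208, 203 and 200 CPM in PBS-1_d6 to 176, 168 and 154 CPM in 5FU-1_d6. The ratio of Spns2 to Mfsd2b per kb went from 7.79 ± 0.869 in PBS-1_d6 to 156 ± 72.2 in 5FU-1_d6, and from 9.11 ± 1.17 in PBS-3_d6 to 18.7 ± 5.16 in 5FU-3_d6. It was 9.60 ± 1.13 in 5FU-1_d21, 8.09 ± 0.835 in 5FU-3_d21 and 7.53 ± 0.800 in old HSCs. The lowest level of Spns2 outside 5FU-1_d6 was in old HSCs (199, 168 and 191 CPM), below all PBS-3_d6 libraries by a log2 difference of -0.32 ± 0.09 (adjusted p = 0.188, edgeR; 0.00926 by DESeq2).

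Among the receptors, S1pr4 fell at day 6 of the third administration, and S1pr4 and S1pr1 rose from there to day 21. S1pr4, a receptor found mostly on blood cells, had 26.3, 27.2 and 26.4 CPM in PBS-3_d6, 19.8, 19.8 and 18.0 CPM in 5FU-3_d6, and 27.5, 26.4 and 24.9 CPM in 5FU-3_d21. Its libraries at day 6 lay below all others of the third course, with an SD of 1.01 CPM between them. The fall was -0.49 ± 0.08 (adjusted p = 0.00922) and the rise to day 21 was 0.46 ± 0.09 (adjusted p = 0.0145), both on the log2 scale by edgeR. Without 5FU-3_d6 replicate 3 the rise of S1pr4 no longer passed the test (0.41, adjusted p = 0.0522, edgeR).

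S1pr1 had 23.9, 21.6 and 17.6 CPM in PBS-3_d6, 17.3, 12.2 and 12.7 CPM in 5FU-3_d6, and 21.4, 21.0 and 18.9 CPM in 5FU-3_d21. The lowest PBS library and the highest treated library were nearly equal, though the groups did not overlap. The difference at day 6 was -0.60 ± 0.17 on the log2 scale and missed the threshold (adjusted p = 0.0526, edgeR). It passed in 5 of 13 alternatives. These included DESeq2 (adjusted p = 0.0222), a fit of all 21 libraries (0.0171), library totals alone (0.0259) and leaving out 5FU-3_d6 replicate 1 (0.0313). It did not pass when any other library of the comparison was left out (adjusted p up to 0.158, edgeR). The rise of S1pr1 to day 21 was 0.55 ± 0.15 (adjusted p = 0.0442, edgeR), and it was lost when any 1 of 5 libraries was left out, each but 5FU-3_d6 replicate 1 (adjusted p between 0.0694 and 0.134).

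S1pr2 had 19.1, 15.2 and 10.95 CPM in PBS-3_d6 and 12.5, 7.41 and 12.4 CPM in 5FU-3_d6. Its groups overlapped, with a log2 difference of -0.51 ± 0.26 (adjusted p = 0.230, edgeR). In the first course the receptors differed in the same order of groups, given here without a test: S1pr1 had 20.3, 20.1 and 19.3 CPM in PBS-1_d6 and 12.7, 7.74 and 9.41 CPM in 5FU-1_d6, a log2 difference of -1.01 ± 0.17. The differences of S1pr2 (-0.80 ± 0.24) and S1pr4 (-0.29 ± 0.09) were smaller, and no library of either overlapped between the groups. Per length, S1pr4 was 1.67 ± 0.124 times S1pr1 in PBS-1_d6, 2.84 ± 0.501 times in 5FU-1_d6, 1.64 ± 0.253 times in PBS-3_d6 and 1.78 ± 0.302 times in 5FU-3_d6.

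Of the enzymes, none of Sphk2, Sgpl1 and Sgpp1 passed the test in any of the 6 comparisons by edgeR. Sphk2, the kinase found in the nucleus and mitochondria, had 87.7, 83.8 and 83.9 CPM in PBS-3_d6 and 68.8, 74.5 and 84.7 CPM in 5FU-3_d6 (log2 difference -0.18 ± 0.10, adjusted p = 0.232, edgeR). Sgpl1 had 149, 108 and 106 CPM in PBS-3_d6 and 147, 144 and 119 CPM in 5FU-3_d6 (0.15 ± 0.15, adjusted p = 0.540). Sgpp1 was slightly higher in all treated libraries (34.5, 32.0 and 36.6 CPM against 29.3, 31.9 and 30.6 CPM), with 0.15 ± 0.09 (adjusted p = 0.285).

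Sgpl1, which breaks S1P down, had the largest fitted difference of the members at day 21 of the first course, a comparison described without a test because it uses the PBS libraries of the choice. It had 111, 103 and 90.0 CPM in PBS-1_d6, 134, 140 and 123 CPM in 5FU-1_d6 and 143, 173 and 194 CPM in 5FU-1_d21. Both 5-FU groups lay above the PBS group in every library, with log2 differences of 0.38 ± 0.10 at day 6 and 0.75 ± 0.13 at day 21. How many of all genes lay above in this way was not counted. The day and the column suffix also differ between 5FU-1_d21 and PBS-1_d6. In the third course 5FU-3_d21 had 162, 125 and 154 CPM, a difference from PBS-3_d6 of 0.27 ± 0.16 (adjusted p = 0.517, edgeR). HSCs of old mice had 124, 107 and 106 CPM, below 5FU-3_d21 by 0.39 ± 0.12 on the log2 scale (adjusted p = 0.172, edgeR; 0.0408 by DESeq2).

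Sphk1, the inducible kinase of the cytosol, was detected in some groups and not in others. It had 309, 561 and 150 reads in 5FU-3_d21 (11.5, 20.5 and 5.91 CPM) and 40, 304 and 304 reads in old HSCs (1.67, 8.82 and 11.1 CPM). No read was counted in any of the 9 libraries of 5FU-1_d6, 5FU-1_d21 and 5FU-3_d6. Each PBS group had reads in 1 library of 3, with 103 in PBS-1_d6 replicate 3 and 85 in PBS-3_d6 replicate 1. Against a floor of 3 reads over the group, the mean of 5FU-3_d21 was at least 413.4-fold higher than 5FU-3_d6 and at least 398.4-fold higher than 5FU-1_d21, and old was at least 235.2-fold higher than 5FU-3_d6. Sphk1 passed the filter on low counts in these comparisons only through the group where it was high, so that it had to differ there, and no p-value is given for them. The bounds describe the counts as deposited, and the cause of the zeros was not tested. Against PBS-3_d6, where 1 library had reads, Sphk1 likewise passed that filter only through 5FU-3_d21 or old. No p-value is given for those comparisons either.

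Such a run of zeros was uncommon for a gene of this abundance. Sphk1 had a mean of 88.4 reads and 0 reads in 13 of 21 libraries, and of the 1478 genes with a mean within 2-fold, 3 (0.203%) had as many libraries at 0. It was the only gene of the table with at least 3 reads in all 6 libraries of 5FU-3_d21 and old and 0 in all 9 libraries of 5FU-1_d6, 5FU-1_d21 and 5FU-3_d6, a pattern looked for after its values were seen.

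Counted over the members, 8 of 9 passed the filter on low counts in 5FU-3_d6 against PBS-3_d6, where 2 of 8 passed the test and both were lower. Over all 12729 genes tested there, 18.1% passed, 8.3% as lower. In 4 members all treated libraries lay below all PBS libraries, as in 17.8% of all genes. Sgpp1 lay above, by 32.0 against 31.9 CPM at the nearest libraries. The share of all genes lying above was not counted, so this is no result about Sgpp1. The median log2 difference of the members tested was -0.36, against -0.01 over all genes. The calls split into 1253 higher and 1057 lower genes, and into 807 and 1462 when libraries were scaled by their totals alone, a scaling that moved the median of all genes to -0.11. In 5FU-3_d21 against 5FU-3_d6, 3 of 8 members passed beside Sphk1, all higher (Mfsd2b, S1pr4 and S1pr1), against 19.5% of 12553 genes, 8.68% as higher. Sphk1 is left out of this count, since it was at 0 in all 5FU-3_d6 libraries. In 4 of these 8 members all day 21 libraries lay above all day 6 libraries, as in 19.2% of all genes. That comparison gave 1089 higher and 1361 lower genes, or 1701 and 977 with library totals alone (median of all genes 0.12, against 0.01). Mfsd2b, S1pr4 and S1pr1 kept their directions in both comparisons under every scaling tried.

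In the other 4 tested comparisons no member passed by edgeR. In 5FU-3_d21 against PBS-3_d6, 1 member had an unadjusted p under 0.05 (Sphk1, which passed the filter only through 5FU-3_d21) and DESeq2 called 0. Over all genes there, DESeq2 called 592 of 12632 and edgeR 0.0475%. In 5FU-3_d21 against 5FU-1_d21 the member counts were 2 and 2 (Spns2, and Sphk1, which was at 0 in all 5FU-1_d21 libraries and had to differ). DESeq2 called 161 of 12474 genes there and edgeR 0.00802%. In old against PBS-3_d6 the member counts were 2 (Spns2 and Sphk2) and 1 (Spns2), against 569 of 12847 genes by DESeq2 and 0.996% by edgeR. In old against 5FU-3_d21 they were 1 and 1 (Sgpl1 in each), against 985 of 12700 and 2.24%. The share of all genes at an unadjusted p under 0.05 was not counted, so those member counts are no result about the members. These comparisons share libraries (5FU-3_d6, 5FU-3_d21, PBS-3_d6 and old each stand in several), so they do not bear on each other as separate evidence. In the comparisons that used the libraries of the choice, 6 members had all 5FU-1_d6 libraries below all PBS-1_d6 libraries and 1 (Sgpl1) above. Over all genes 19.8% lay below in this way and 22.2% were called, and in 5FU-1_d21 against PBS-1_d6 0.221% were called. The share of all genes lying above was not counted here either. The PBS-1_d6 columns carry the same suffix as those of 5FU-1_d6 and the 5FU-1_d21 columns do not, so that in 5FU-1_d21 against PBS-1_d6 it cannot be told apart from the groups.

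**Figure D3:**
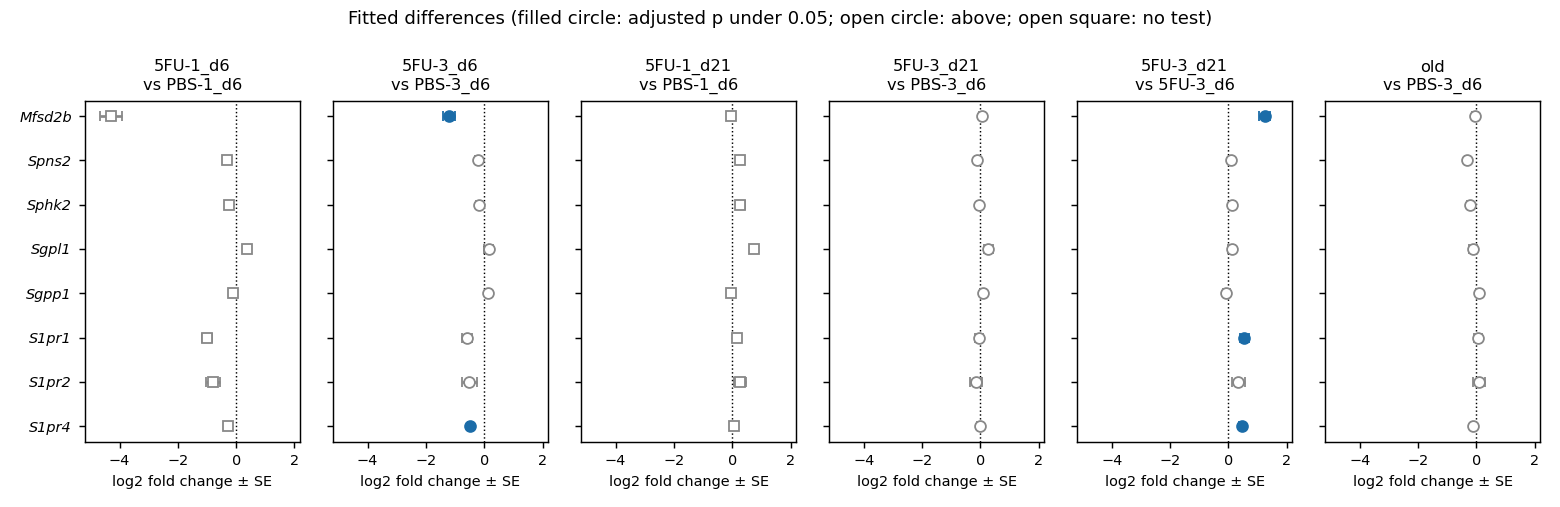
Fitted log2 fold change (x axis, ± SE) of 8 members in 6 comparisons; Sphk1 is left out because groups at 0 give no finite value. Filled circles passed the test (Mfsd2b and S1pr4 in 5FU-3_d6 against PBS-3_d6, and these with S1pr1 in 5FU-3_d21 against 5FU-3_d6), open circles did not, and open squares were not tested.

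Marker lists of HSCs and of other cell types were summed in the same libraries. Mfsd2b is known from platelets and red cells, and the summed CPM of 14 megakaryocyte and platelet genes was 1011 to 1070 in PBS-3_d6 and 591 to 668 in 5FU-3_d6, and 1028 to 1066 in PBS-1_d6 and 609 to 653 in 5FU-1_d6. At day 21 it was 731 to 775 in 5FU-1_d21 and 791 to 852 in 5FU-3_d21, and in old HSCs 1196 to 1284. All 6 day 6 5-FU libraries and all 6 day 21 libraries had sums below those of the PBS libraries, and those of day 21 lay between. In 5FU-3_d6 against PBS-3_d6, 6 of the 13 tested genes of this list were lower and 1 (Selp) was higher by edgeR. The largest term of the sum, Mmrn1, a platelet and endothelial adhesion protein, went from 619 ± 26.2 to 275 ± 44.2 CPM. Gp6, the collagen receptor of platelets, had 10 reads in 5FU-3_d6 replicate 2 and 0 in the other libraries. Fewer cells of a type and less RNA per cell cannot be told apart in these bulk libraries, and the part of this list in the fall of Mfsd2b was not tested.

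**Figure D4:**
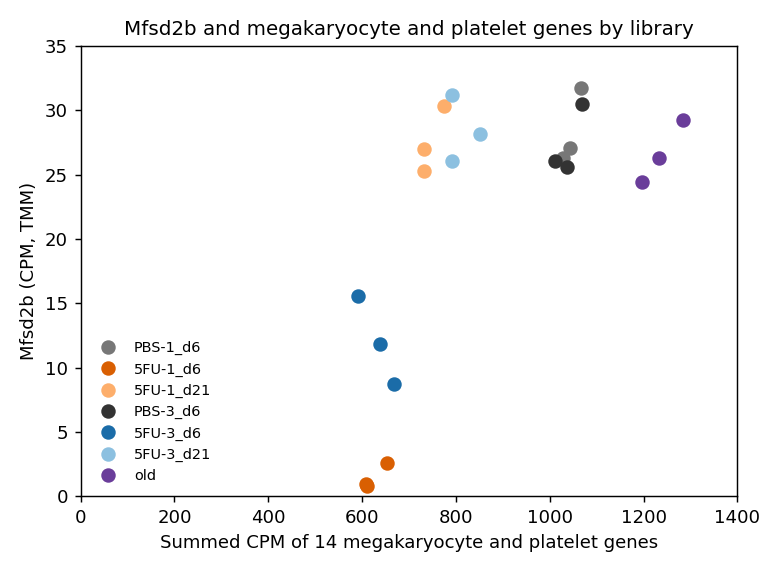
Mfsd2b (CPM, y axis) against the summed CPM of 14 megakaryocyte and platelet genes (x axis) in the 21 libraries, coloured by group. Day 6 5-FU libraries sit at sums of 591 to 668 with Mfsd2b from 0.804 to 15.6 CPM, and the other libraries at 731 to 1284 with Mfsd2b from 24.4 to 31.7 CPM.

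The erythroid list was higher in 5FU-1_d6 and overlapped between the groups of the third course. Its summed CPM over 15 genes was 62.6 to 88.2 in PBS-3_d6 and 77.2 to 101 in 5FU-3_d6, and 60.7 to 76.5 in PBS-1_d6 and 118 to 124 in 5FU-1_d6. Of 10 genes tested in the third course, 3 were higher and 2 lower by edgeR, and the beta globin Hbb-bs went from 6.54 ± 0.502 to 18.9 ± 2.56 CPM. The lower genes were Car1 and Ermap, with means of 5.89 and 0.706 CPM in PBS-3_d6 and no reads in 5FU-3_d6, so that they were tested only through the PBS libraries. The alpha globins Hba-a1 and Hba-a2 had means of 1.33 and 1.35 CPM in PBS-3_d6 and 0.243 and 0.233 CPM in 5FU-3_d6. Of the markers that define red cells, Slc4a1 and Trim10 were at 0 in all libraries of PBS-3_d6 and 5FU-3_d6. The 12 HSC genes summed to 4398 to 4684 CPM in PBS-3_d6 and 3206 to 3241 in 5FU-3_d6, with 1 higher and 5 lower, and none was at 0 in any group. In the same groups the myeloid list went from 91.3 to 122 down to 53.9 to 77.9 CPM (2 of 8 lower), the lymphoid list from 48.7 to 53.1 to 42.7 to 49.6 (none of 4 called, Cd3e and Cd8a at 0), the endothelial list from 231 to 247 to 224 to 305 (1 of 7 higher, 1 lower), and the stromal list from 31.0 to 49.5 to 22.2 to 48.1 (1 of 5 lower, Col3a1 at 0). Most of the endothelial sum in PBS-3_d6 was Pecam1 (169 CPM) and Vwf (58.7 CPM), and Vwf is also in the platelet list. Endothelial Cdh5 was at 0 in all PBS-3_d6 libraries and had a mean of 0.0866 CPM in 5FU-3_d6. In the first course the stromal sum was 52.1 to 120 CPM in PBS-1_d6 and 4.36 to 9.58 CPM in 5FU-1_d6. The part of these lists in the member results was not tested.

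The genes whose profile was most like that of Mfsd2b were ranked by Pearson correlation of log2(CPM + 1) over the 21 libraries, among 10489 genes with a mean of at least 5 CPM. The libraries share their groups and the 3 libraries of 5FU-1_d6 carry much of each value, so r is also given over the 15 libraries outside the choice. Itga2b, the integrin chain CD41 of megakaryocytes and early HSCs, ranked first with r = 0.971 (0.884 over 15 libraries). Zbtb16, a zinc finger repressor, had 0.962 (0.823), Ndrg1 0.961 (0.827), Pdcd4 0.948 (0.617) and Zkscan14 0.946 (0.946). Icam4, Plek, Cd72, Rab37 and Narf completed the first 10, with r from 0.925 to 0.939. Over the 15 libraries their values were 0.740, 0.897, 0.692, 0.7205 and 0.804. Plek, the platelet protein pleckstrin, had means of 55.3 CPM in PBS-3_d6 and 16.0 CPM in 5FU-3_d6.

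Among the members, S1pr1 came first over the 21 libraries, at rank 13 with r = 0.918, and S1pr4 over the 15 libraries outside the choice, with r = 0.896 against 0.842 for S1pr1. S1pr2 ranked 215 (0.795), Spns2 550 (0.705) and S1pr4 770 (0.656). Over the 15 libraries the value for S1pr2 was 0.715, that for Spns2 0.314 and that for Sphk2 0.261. Sphk2 ranked 1999, Sgpp1 3068 and Sgpl1 5494 with r = -0.09, and Sphk1 was under the minimum level. The value for Sgpp1 turned from 0.292 over 21 libraries to -0.37 over 15.

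Of 68 further genes of the pathway in the table, 58 were tested in 5FU-3_d6 against PBS-3_d6, and 5 were higher and 5 lower. That is 17.2%, near the 18.1% of all genes called there, so the count is no result about the pathway. The higher genes were Arrb2 (0.84 ± 0.12), an arrestin that uncouples and internalises receptors, the GTPases Rhoa (0.29 ± 0.07) and Rac1 (0.28 ± 0.06), Smpd4 (0.63 ± 0.10), a sphingomyelinase, and the ceramide synthase Cers2 (0.22 ± 0.06). The lower genes were the ceramidase Acer2 (-0.64 ± 0.16), which releases sphingosine, the sphingomyelinase Smpd2 (-0.57 ± 0.10), Arhgef12 (-0.48 ± 0.11), a guanine nucleotide exchange factor, the sphingomyelinase-like Smpdl3a (-0.43 ± 0.11) and the ceramide synthase Cers4 (-0.35 ± 0.09). All values are log2 differences ± SE with adjusted p between 0.00664 and 0.0489 by edgeR. By list, de novo ceramide synthesis had 1 higher and 1 lower of 14, turnover of ceramide and sphingomyelin 1 and 3 of 19, receptor coupling 3 and 1 of 18, and other S1P phosphatases, receptors and carriers 0 of 7. The median over all 58 was -0.07, against -0.01 over all genes. With 1 library left out, Arrb2, Smpd4 and Smpd2 kept their calls in all 6 fits. Cers2, Cers4 and Smpdl3a lost theirs whichever library was left out, and Acer2, Rac1 and Rhoa in 5 of 6 fits and Arhgef12 in 4 of 6 (adjusted p up to 0.128, edgeR). Acer2 kept its call without PBS-3_d6 replicate 2, Rac1 without 5FU-3_d6 replicate 1, Rhoa without 5FU-3_d6 replicate 2, and Arhgef12 without 5FU-3_d6 replicate 3 or PBS-3_d6 replicate 1. With library totals alone Cers2, Rac1 and Rhoa did not pass (adjusted p between 0.0757 and 0.228, edgeR).

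From 5FU-3_d6 to 5FU-3_d21, 4 of 58 were higher and 3 lower (12.1%, against 19.5% of all genes). Acer2 (0.64 ± 0.13) and Smpd2 (0.53 ± 0.11) rose and Arrb2 (-0.67 ± 0.14), Smpd4 (-0.55 ± 0.11) and Rhoa (-0.28 ± 0.07) fell, each against its direction at day 6. Abca1, a lipid exporter of the plasma membrane, rose by 0.69 ± 0.18, and the sphingomyelin synthase Sgms1 by 0.34 ± 0.09. These genes share the 5FU-3_d6 libraries with the comparison above. Without 5FU-3_d6 replicate 3, Acer2, Smpd4 and Smpd2 missed the threshold (adjusted p between 0.0511 and 0.0544, edgeR), as did Arrb2 without 5FU-3_d21 replicate 2 or 3 (up to 0.0525). Abca1 kept its call only without 5FU-3_d21 replicate 1, and Sgms1 and Rhoa only without 5FU-3_d6 replicate 2, with adjusted p up to 0.130 in the other fits. In 5FU-1_d6 against PBS-1_d6, where these genes were not part of the choice, 2 of 60 were higher (Plpp2, a lipid phosphatase, 0.48 ± 0.12, and Rac1, 0.34 ± 0.07) and 4 lower by edgeR, against 22.2% of all genes called. The lower genes were Abca1 (-1.16 ± 0.21, adjusted p = 0.00965), Sgms1 (-0.47 ± 0.07), Arhgef12 (-0.54 ± 0.11) and the receptor S1pr3 (-2.29 ± 0.60), which went from 2.54 ± 0.666 to 0.522 ± 0.354 CPM. S1pr3 held 22, 7 and 10 reads in 5FU-1_d6 and passed the filter on low counts only through PBS-1_d6. Its call there is not taken as a result. Abca1, Sgms1 and Arhgef12 kept their calls with any 1 library left out. Rac1 lost its call without replicate 2 of either group (adjusted p up to 0.0537, edgeR), Plpp2 kept it only without 5FU-1_d6 replicate 1 or PBS-1_d6 replicate 2, and S1pr3 only without 5FU-1_d6 replicate 1 (up to 0.105). Rac1 and Arhgef12 passed in both courses at day 6. No gene of these lists passed by edgeR in 5FU-1_d21 against PBS-1_d6 (11 of 59 at an unadjusted p under 0.05, 4 by DESeq2), 5FU-3_d21 against PBS-3_d6 (6 of 60, 3 by DESeq2) or 5FU-3_d21 against 5FU-1_d21 (5 of 60, 0 by DESeq2). Over all genes DESeq2 called 725 of 12647, 592 of 12632 and 161 of 12474, so its counts are no result about the pathway. S1pr3 was among its calls in the first 2 comparisons. The CPM of S1pr3 was 0.664, 0.540 and 0.654 in 5FU-1_d21 and 1.82, 2.69 and 3.12 in PBS-1_d6. In 5FU-3_d21 it was 0, 0 and 0.16 (4 reads in the last), against 3.60, 4.75 and 2.84 in PBS-3_d6. S1pr3 was tested there only through the PBS libraries.

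In old HSCs, 2 pathway genes, Grk2 and Gna12, passed against both PBS-3_d6 (of 60, 3.33%, against 0.996% of all genes) and 5FU-3_d21 (of 59, 3.39%, against 2.24%), comparisons that share the old libraries. Sgms2 is left out of these counts, since it passed the filter on low counts only through the old libraries and had to differ. Sgms2, a sphingomyelin synthase, had 56, 133 and 98 reads in old HSCs, 0, 0 and 1 in PBS-3_d6 and 0 in all of 5FU-3_d21. Elsewhere it was seen in 1 library of 5FU-1_d6 (98 reads) and 1 of 5FU-3_d6 (35 reads). The mean in old HSCs was at least 86.36-fold higher than in 5FU-3_d21, against a floor of 3 reads over the group. Grk2, a kinase that desensitises receptors, had 123, 115 and 105 CPM in old HSCs against 173, 202 and 224 CPM in PBS-3_d6 (log2 difference -0.82 ± 0.12, adjusted p = 0.0226, edgeR). Gna12, a G protein alpha subunit, had 3.04, 2.18 and 3.73 CPM against 9.23, 9.03 and 14.3 CPM (-1.88 ± 0.29, adjusted p = 0.0300, edgeR). For Grk2 and Gna12, all old libraries were below those of the other 6 groups. The calls were not stable to the loss of a library. Against PBS-3_d6, Grk2 lost its call in all fits but that without PBS-3_d6 replicate 1, and Gna12 in all 6 (adjusted p up to 0.115, edgeR). Against 5FU-3_d21, Grk2 lost it whichever old library was left out, and Gna12 in all fits but that without 5FU-3_d21 replicate 3 (up to 0.181). The old mice were untreated and the PBS mice were injected, so that age and injection cannot be told apart.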

How the data were processed

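RNA was measured in 21 libraries of sorted mouse HSCs (7 groups of 3). Per the labels and the methods of the study, RNA was amplified with SMART-Seq v4, libraries were made with Nextera XT, and single-end reads were aligned to mm10 with TopHat2. The submitters' processing notes give TopHat2 as 2.0.13 and name Cuffdiff and Cufflinks 2.2.1 as further tools. The authors deposited whole-number read counts per gene in 1 table. How the counts were assigned to genes, with or without strand, is not given in the sources used here. No molecular identifiers are mentioned, so the floor of 3 reads allows for counting error only. The SE values come from edgeR's fit and include the spread between libraries.

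Counts were analysed with edgeR 4.0.16 in R 4.3.3 on the 2 groups of each comparison. Genes were filtered with filterByExpr, scaled by trimmed mean of M values (TMM) and tested with the quasi-likelihood F test, with Benjamini-Hochberg adjustment over all genes tested and a threshold of 0.05. The script was tested on simulated counts. CPM values came from a TMM scaling over all 21 libraries. Lengths were those of the longest transcript in GENCODE M21 (GRCm38); promoter windows came from RefSeq (GRCm38.p6).

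The members and gene lists were chosen with earlier results of these data known. Mfsd2b came from 5FU-1_d6 against PBS-1_d6, so members were tested only in the 6 comparisons without those libraries; the direction of Mfsd2b after the third administration is no independent evidence. All members were named, with all genes of the pathway lists that passed, up to 4 for each list by p-value, and the 10 genes most like Mfsd2b. Alternatives were DESeq2 1.42.0, other size factors, other filters on low counts, a replicate block, a fit of all 21 libraries and leaving out each library. No pair of libraries in a group agreed within sampling noise (chi-square per degree of freedom 16.8 to 37.2 over 21 pairs).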

Additional observations from a re-analysis of the deposited data

How the results depend on the processing

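Mfsd2b and S1pr4 kept their calls in 5FU-3_d6 against PBS-3_d6 in all 13 alternatives (log2 fold changes from -1.43 to -1.02 and from -0.59 to -0.45), and Mfsd2b did so in 5FU-3_d21 against 5FU-3_d6. In 5FU-3_d6 against PBS-3_d6, where 2 members were called, 4 passed with library totals alone, with DESeq2 and in a fit of all 21 libraries, each adding S1pr1 and Spns2. In 5FU-3_d21 against 5FU-3_d6, where 4 were called with Sphk1 included, 2 to 4 passed with 1 library left out (2 without 5FU-3_d6 replicate 3). Where no member was called, DESeq2 called 2 in 5FU-3_d21 against 5FU-1_d21 and 1 in each comparison of old HSCs, and the fit of all 21 libraries 1 in old against PBS-3_d6. Of the 2 in 5FU-3_d21 against 5FU-1_d21, Sphk1 was at 0 in all 5FU-1_d21 libraries and had to differ, which leaves Spns2. Pathway genes called in 5FU-1_d6 against PBS-1_d6 were 6 as reported (S1pr3 included), 14 with DESeq2 and 11 with all 21 libraries, and in 5FU-1_d21 against PBS-1_d6 0, 4 and 2. Over all genes, 5FU-1_d6 against PBS-1_d6 gave 3685 of 12759 with DESeq2 and 2706 of 13571 with all 21 libraries. For 5FU-1_d21 against PBS-1_d6 these were 725 of 12647 and 257 of 13571. Of the values of single genes, 912 kept their direction and side of the threshold, 123 lost the threshold, 13 passed it newly and 18 changed sign, the last with adjusted p of 0.809 or more (edgeR). With 1 library left out, log2 differences that changed sign ran, in 5FU-3_d21 against PBS-3_d6, from -0.018 to 0.14 (Mfsd2b), -0.15 to 0.061 (S1pr1), -0.33 to 0.058 (S1pr2) and -0.053 to 0.015 (S1pr4). They ran from -0.13 to 0.021 for Sgpp1 in 5FU-3_d21 against 5FU-3_d6 (0.044 with library totals alone) and from -0.073 to 0.094 in old against 5FU-3_d21. For Mfsd2b they ran from -0.026 to 0.12 in 5FU-3_d21 against 5FU-1_d21. In old against PBS-3_d6 they ran from -0.11 to 0.036 (Mfsd2b), -0.20 to 0.060 (Sgpl1), -0.045 to 0.16 (S1pr1) and -0.093 to 0.29 (S1pr2). Replicate numbers did not pair the libraries (r of deviations from the group means between -0.0596 and 0.0249 over 24 pairs). With the replicate block 3 members passed in 5FU-3_d6 against PBS-3_d6 (S1pr1 added, adjusted p = 0.0401, edgeR), 4 in 5FU-3_d21 against 5FU-3_d6 and 0 in the other tested comparisons. The 4 include Sphk1, which was at 0 in all 5FU-3_d6 libraries and had to differ. The block ended 6 of the 10 pathway calls in 5FU-3_d6 against PBS-3_d6 (Rhoa, Rac1, Acer2, Smpdl3a, Cers4 and Cers2, adjusted p between 0.0538 and 0.122, edgeR), those of Grk2 (0.0924) and Gna12 (0.0528) in old against PBS-3_d6, that of Gna12 in old against 5FU-3_d21 (0.0884) and that of S1pr3 in 5FU-1_d6 against PBS-1_d6 (0.0759).

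Over all genes, 5FU-3_d6 against PBS-3_d6 gave 2310 calls, 1509 with the block and 1231 to 1582 with 1 library left out. 5FU-3_d21 against 5FU-3_d6 gave 2450 and 1351 to 1744, and 5FU-1_d6 against PBS-1_d6 2827 and 1563 to 1947. The latter split into 1470 higher and 1357 lower genes, or 1127 and 1623 with library totals alone. 5FU-3_d21 against PBS-3_d6 gave 6, with 592 by DESeq2, 185 with all 21 libraries, 15 with library totals alone, 3 with RLE size factors, 3 with a mean of at least 10 counts, 0 with the block and 1 to 4 with 1 library left out. 5FU-3_d21 against 5FU-1_d21 gave 1, with 161 by DESeq2, 16 with all 21 libraries, and 0 with the block and with any 1 library left out. Old against PBS-3_d6 gave 128, with 569 by DESeq2, 30 with the block and 20 to 76 with 1 library left out. Old against 5FU-3_d21 gave 285, with 985, 606 (all 21 libraries), 111 and 63 to 178 in the same way. 5FU-1_d21 against PBS-1_d6 gave 28 (9 higher, 19 lower), with 725 by DESeq2, 257 with all 21 libraries, 83 with library totals alone (17 higher, 66 lower), 3 with the block and 1 to 32 with 1 library left out. The cause of these differences was not tested, beyond that a fit without a library holds fewer samples.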
